A study of Rattus norvegicus with 6 samples.

Results

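Type 2 innate lymphoid cells (ILC2s) of the rat pancreas were described cell by cell in 6 single-cell libraries, where 1175 of 75981 kept cells (1.55%) met a marker rule. A cell counted as an ILC2 when it held at least 1 UMI (unique molecular identifier, a tag that marks a captured transcript) of Gata3 and of Il1rl1, and at least 1 of the 3 receptors Il7r, Il2ra and Icos was detected. It also had to hold no UMI of the 3 Cd3 genes, of Ncr1 or of Csf1r, and at most 1 UMI of the mast cell protease Cpa3. The libraries came from male Wistar rats in 3 groups of 2 rats each. The young group was killed at 2 months on the normal diet. The old group stayed on the normal diet for another 18 months and was 20 months old. The HFHF-old group ate a high-fat high-fructose (HFHF) diet over the same 18 months. No rat carried an engineered allele, and each library is 1 rat. The cells were released by collagenase digestion and enriched for islets on a density gradient, so shares below are shares of that preparation and not of the whole organ.

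ILC2s are tissue-resident lymphocytes without a rearranged antigen receptor. They depend on the transcription factor Gata3 and respond to the alarmins interleukin-33, interleukin-25 and thymic stromal lymphopoietin, which are released by damaged or stimulated stromal and epithelial cells. They then secrete type 2 cytokines such as interleukin-5, which sustains eosinophils, and in the pancreas they have been placed near islets and myeloid cells. Il1rl1 encodes ST2, the receptor for interleukin-33. Il2ra, Il7r and Icos encode the interleukin-2 receptor alpha chain, the interleukin-7 receptor and a costimulatory receptor.

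The 6 libraries held between 7479 and 17504 kept cells, with median depths from 2547 to 9824 UMIs per kept cell. HFHF-old replicate 2 stood apart from the other libraries. In it, 57.9% of cells met a natural killer (NK) gate (Ncr1 detected, no Cd3), against 4.33 to 7.31% elsewhere, and 1.13% met a macrophage gate (Csf1r detected), against 21.6 to 51.5%. Any pair of libraries shared between 20 and 69 barcodes, at most 0.604% of the smaller library, and no ILC2 barcode occurred in a pair. The share ratio, the differences of the genes named between HFHF-old and old rats and the interaction are also given without HFHF-old replicate 2.

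The cells were chosen by their UMIs of the rule genes, so these genes are described without a test. Il2ra was held by 92.2 to 100% of ILC2s in each rat, Il7r by 72.2 to 92.0% and Icos by 33.7 to 61.2%. Il2ra, the receptor chain detected most often, averaged 15.1 and 8.13 UMIs per ILC2 in the young rats. The averages were 48.0 and 15.1 in the old rats, and 49.5 and 47.3 in the HFHF-old rats. These averages are not scaled for depth. The median depths of the ILC2s were 5290 and 7543 UMIs in young, 11977 and 4621 in old, and 9590.5 and 10239 in HFHF-old rats. Members near the limits were few: 0 to 13.1% of ILC2s in a rat held exactly 1 Gata3 UMI, 0 to 14.8% exactly 1 Il1rl1 UMI, and 4 cells in all held 1 Cpa3 UMI. Just outside, 202 cells failed only for Cd3, 24 of them with a single Cd3 UMI, 81 failed only for Ncr1 and 426 only for Csf1r. Another 33 cells lacked only the 3 receptors, 299 lacked only Gata3 and 580 lacked only Il1rl1. The cells that failed only for Csf1r had median depths between 9087 and 18881 UMIs per rat, deeper than the ILC2s of the same rat, and in each library but HFHF-old replicate 2, 71.1 to 91.3% of them held C1qa, a macrophage transcript.

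The label was checked against genes the rule did not use. Rora, a transcription factor needed for ILC2 development, was held by 95.6% of ILC2s, the interleukin-9 receptor gene Il9r by 36.2% and the interleukin-25 receptor gene Il17rb by 34.7%. In the cells that failed only for Cd3 these shares were 79.2%, 15.3% and 6.93%. Cells that failed only for Ncr1 held Rora in 66.7 to 100% and Il17rb in 0 to 23.1% per rat, so Rora alone does not set ILC2s apart from them. The mast cell genes Tpsb2, Tpsab1 and Fcer1a were at 0 in all 1175 ILC2s and were held by 21.4%, 10.7% and 70.2% of the mast gate. Ms4a2 was held by 1 ILC2 and by 77.4% of that gate. Kit, which is on the same marker list, was held by 56.9% of ILC2s and 69.0% of the mast gate. Summed over 9 measured mast markers, ILC2s had 84.1 to 195 CPM (UMI counts scaled to a common library size) per rat and the mast gate 14247 to 42801 CPM. Summed over 13 NK and cytotoxic genes, ILC2s had 70.1 to 748 CPM, T cells 1814 to 5215 CPM and the NK gate 14113 to 22954 CPM. The highest ILC2 value of that list, 748 CPM, was in HFHF-old replicate 2, the library rich in NK cells, and its part in the results was not tested. Some T cell transcripts were present in many ILC2s. The chain gene Cd247, which T and NK cells share, was held by 19.3% of ILC2s, the receptor constant region gene Trbc2 by 34.8% and the adhesion receptor gene Cd2 by 42.7%. With cells of both classes thinned to 2000 UMIs, and shallower cells left out, Trbc2 was held by 4.44 to 17.6% of ILC2s and 30.5 to 61.4% of T cells per rat. Cd247 was held by 0 to 11.5% and 20.5 to 51.2%. Other genes overlapped between the classes. Skap1, also on the T cell list, was held by 65.4 to 86.7% of thinned ILC2s and 59.5 to 96.1% of thinned T cells. Lat was held by 15.6 to 40.0% and 18.1 to 44.9%. Transcripts of macrophages, fibroblasts, acinar cells and beta cells were found in ILC2s too, with C1qa in 26.6% of them, the collagen gene Col3a1 in 31.7%, the acinar protease gene Ctrb1 in 74.6% and the insulin gene Ins1 in 86.5%. In thinned cells these shares varied widely between rats in both classes. Ins1 was held by 0 to 88.0% of ILC2s and 0.714 to 92.8% of T cells per rat, and C1qa by 0.971 to 15.6% and 0.159 to 27.1%, with ILC2s above T cells in 3 of the 6 rats. Summed per rat, ILC2s had 5.60 to 489 CPM of 9 macrophage markers against 7214 to 15476 CPM in the macrophage gate. They had 10.5 to 1936 CPM of 6 fibroblast markers. The part of such transcripts in the results was not tested. Klrg1, an inhibitory receptor often used to mark ILC2s in mice, was held by only 3 ILC2s (0.255%) against 49.5% of the NK gate.

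**Figure D1:**
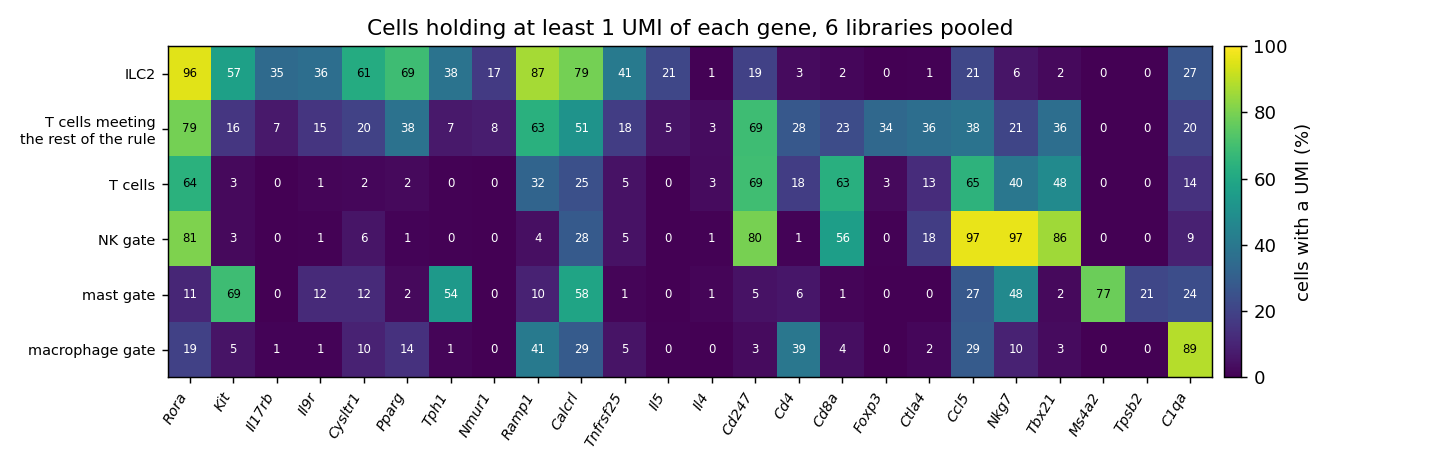
Share of cells, in percent and printed in each tile, that held at least 1 UMI of each gene (columns) in 6 gates (rows), with the 6 libraries pooled and depths not equalised. Il5, Il17rb and Nmur1 were held by 21.3%, 34.7% and 17.1% of ILC2s, and the mast cell gene Ms4a2 was held by 1 ILC2.

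The share of ILC2s among kept cells was far lower in both groups of 20-month-old rats than in the young rats. It was 3.80% (665 cells, 95% Wilson interval 3.53 to 4.09%) and 2.73% (282 cells, 2.43 to 3.06%) in the young rats. In the old rats it was 0.334% (25 cells, 0.227 to 0.493%) and 0.329% (54 cells, 0.252 to 0.429%). In the HFHF-old rats it was 0.368% (46 cells, 0.276 to 0.490%) and 0.877% (103 cells, 0.724 to 1.06%). Every young rat lay above every older rat, and the lower HFHF-old rat lay within the counting intervals of the old rats. The intervals cover counting error only.

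Means were 3.26% ± 0.756 (SD, n = 2) in young, 0.332% ± 0.00383 (SD, n = 2) in old and 0.623% ± 0.360 (SD, n = 2) in HFHF-old rats. Old rats thus had a 9.85-fold lower share than young rats (log2 ratio -3.30), and an exact two-sided permutation test over rats gave p = 0.333, the smallest p that 2 rats against 2 can reach. The HFHF-old mean was 1.88-fold above the old mean (log2 ratio 0.91, exact permutation p = 0.333). Without HFHF-old replicate 2 the log2 ratio was 0.15. Cells with at least 2000 UMIs were also thinned to 2000 UMIs and gated again, with shallower cells left out. This kept 14063 of 17504 cells in young replicate 1 but only 9581 of 16421 in old replicate 2. Among the thinned cells the shares were 3.80% and 2.24% in young, 0.290% and 0.438% in old and 0.521% and 0.720% in HFHF-old rats. Without the Csf1r criterion, an alternative chosen after seeing the data, the old share stayed 10.7-fold below the young share. The shares were then 0.441% and 0.390% in old and 0.735% and 0.912% in HFHF-old rats (log2 ratio 0.99, exact permutation p = 0.333). Both HFHF-old rats lay above both old rats here, as they did under the main rule and after thinning.

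T cell shares lay the other way round. Cd3-holding T cells, taken as cells with at least 2 Cd3 UMIs, at most 1 Cpa3 UMI and no Ncr1 or Csf1r, made up 1.56% and 2.08% of cells in the young rats. Their shares were 8.40% and 11.8% in the old rats and 2.93% and 10.9% in the HFHF-old rats. For every 100 T cells there were 244 and 131 ILC2s in young, 3.98 and 2.80 in old, and 12.5 and 8.02 in HFHF-old rats. As a share of ILC2s and T cells together, ILC2s made up 63.8% ± 10.0 (SD, n = 2) in young, 3.28% ± 0.783 (SD, n = 2) in old and 9.28% ± 2.63 (SD, n = 2) in HFHF-old rats. The 3 groups did not overlap on this measure, and each exact permutation p was again 0.333. A change in cell number, in release from the tissue and in the other cells of the preparation cannot be told apart from these shares.

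**Figure D2:**
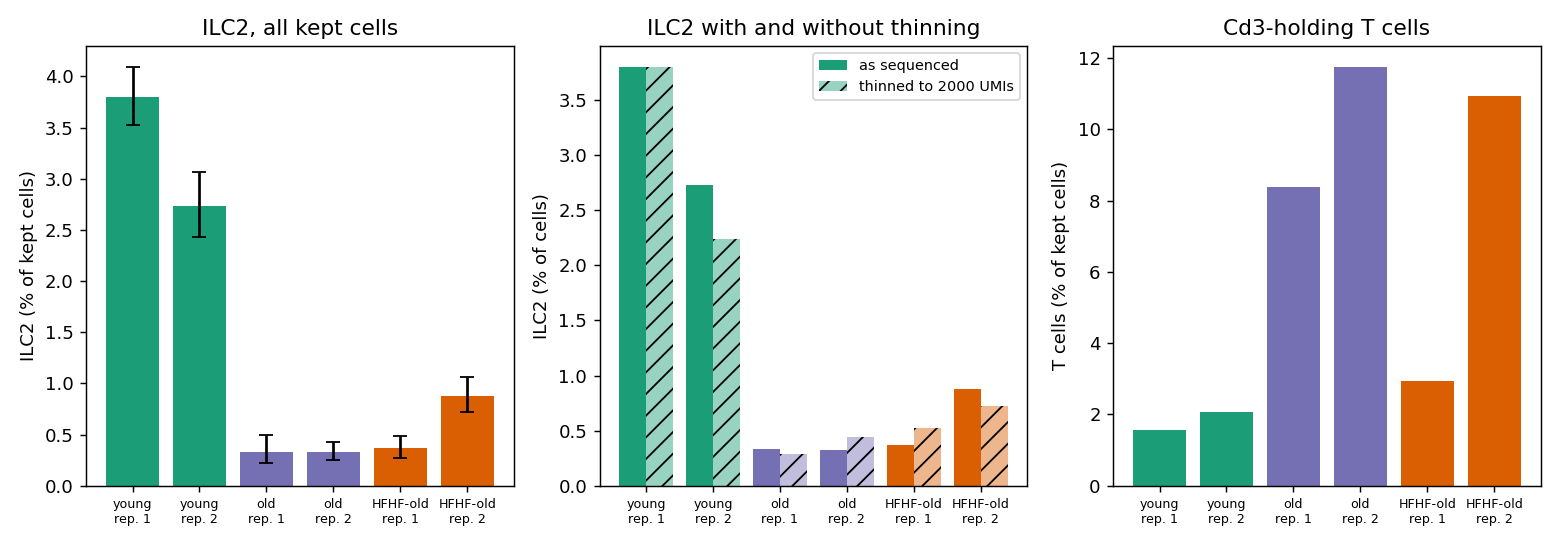
Bars give, for each rat, ILC2s as a percentage of kept cells with 95% Wilson intervals (left), the same share beside the share after thinning to 2000 UMIs (middle) and T cells as a percentage of kept cells (right), with no error bars in the last 2 panels. Cells below 2000 UMIs were left out of the thinned share. ILC2s were 2.73 to 3.80% of cells in young rats and at most 0.877% in the older rats.

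To describe the ILC2 programme, UMIs were summed per rat over ILC2s and over 4698 T cells, and both classes were compared within rats. Of 9921 genes tested, 1637 (16.5%) passed edgeR's quasi-likelihood test, with a Benjamini-Hochberg adjusted p below 0.05 and a change of more than 1.5-fold. Among them 780 (7.86%) were higher and 857 (8.64%) lower in ILC2s, and the median log2 fold change over all tested genes was -0.03. The rule genes were left out of this test. The filter on low counts could be passed through 1 class alone, so list medians cover only the tested genes. A gene near 0 in T cells, such as Il5, was tested through its ILC2 sums. All values below are CPM of the summed UMIs, and fold changes are ILC2 over T cell. In each series of 6 values the rats are in the order young 1 and 2, old 1 and 2, HFHF-old 1 and 2.

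Il17rb showed the greatest rise among the genes named by rule. Its level in ILC2s was 70.5, 109, 168, 80.5, 93.3 and 112 CPM, and in T cells it did not exceed 2.07 CPM in any rat. No ILC2 sum overlapped a T cell sum, and the log2 fold change was 7.84 ± 0.40 (SE, edgeR adjusted p = 8.16e-07). Of 14 tested cytokine and alarmin receptor genes, 6 were higher and 4 lower, with a median log2 fold change of 0.36. Il9r was at 67.4, 69.3, 70.4, 55.0, 57.4 and 52.3 CPM in ILC2s against 0.817 to 11.4 CPM in T cells (log2 fold change 4.39 ± 0.45 SE, edgeR adjusted p = 5.51e-05). Tnfrsf25, the receptor of the cytokine TL1A, rose by 2.57. Il18r1, Il1rap and Il2rg, which encode chains of the interleukin-18, interleukin-33 and common gamma chain receptors, rose by 1.00, 1.14 and 0.85 on the log2 scale. In the other direction Il2rb, the signalling beta chain of the interleukin-2 receptor, stood at 0 to 26.1 CPM in ILC2s and 119 to 264 CPM in T cells (log2 fold change -3.68, edgeR adjusted p = 1.93e-06). Il4r, Il10ra and Tnfrsf4 were also lower.

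Il5 was the type 2 cytokine gene detected most often in ILC2s. Its level was 35.8, 40.1, 6.12, 93.2, 35.9 and 19.6 CPM in ILC2s and at most 3.11 CPM in T cells, and the classes did not overlap (log2 fold change 6.16 ± 0.60 SE, edgeR adjusted p = 3.65e-05). Old replicates 1 and 2 were the lowest and the highest of the 6 rats. In total 250 of 1175 ILC2s (21.3%) held Il5, against 9 of 4698 T cells (0.192%) and 0.443% of the macrophage gate, which should lack it. Cells that held Cd3 and met the rest of the rule were closer, with Il5 in 10% and 25% of them in the young rats (20 and 24 cells), against 20.9% and 23.4% of the ILC2s of these rats. Of these 20 and 24 cells, 6 and 9 held a single Cd3 UMI. The median depths of the 20 and 24 cells were 7112.5 and 10022.5 UMIs, against 5290 and 7543 in the ILC2s. In the older rats Il5 was held by 0 to 2.86% of the cells that held Cd3 and met the rest of the rule, and by 8 to 28.3% of ILC2s. Of cells that failed only for Csf1r, 20.9% and 17.1% held Il5 in the young rats. ILC2s held 328 of the 543 Il5 UMIs found in all kept cells, or 60.4%, while they were 1.55% of the cells. Among the highest genes named by rule against T cells, the same share ran from 18.2% for Hpgds to 57.9% for Thsd7b. It was 21.2% for Pparg, 25.8% for Cysltr1, 37.9% for Tph1 and 53.6% for Il17rb. Cells outside the ILC2 rule thus held most UMIs of most of these genes. After thinning to 2000 UMIs per cell, 7.86% of ILC2s and 0.0463% of T cells held Il5.

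UMIs of the other type 2 cytokine genes were few in ILC2s. Il13 was found in 0 of 1175 ILC2s, which allows up to 0.255% of ILC2s with a UMI at this depth and sets no limit on the share that express the gene, and 3 UMIs of it occurred among all kept cells. Il9 was likewise at 0 in ILC2s, with 1 UMI in all kept cells. Il4 was held by 9 ILC2s (0.766%) and by 2.77% of T cells, Csf2 by 1.53% of ILC2s, and Areg, which encodes the repair factor amphiregulin, by 0.426%. Of the 15 genes on the list of effector cytokines and peptides, 4 were tested and 2 were higher, Il5 and the inflammatory cytokine gene Il6 (log2 fold change 2.99, edgeR adjusted p = 1.12e-04). The median of the 4 tested genes was 1.87, and it does not describe the whole list.

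Of the receptors for neuropeptides and lipid mediators, 6 of 12 measured genes were higher in ILC2s than in T cells. In all 8 were tested, the other 4 being left out by the filter on low counts, and 1 was lower. The median log2 fold change of the 8 tested genes was 2.04, and it does not describe the whole list. Nmur1, the receptor for the neuropeptide neuromedin U, was at 24.1, 28.8, 12.2, 12.7, 30.5 and 30.8 CPM in ILC2s and at most 4.66 CPM in T cells (log2 fold change 4.66 ± 0.70 SE, edgeR adjusted p = 7.14e-04). Nmu, which encodes neuromedin U itself, was among the 12 highest genes, at 117 to 159 CPM in ILC2s and 1.63 to 13.5 CPM in T cells (log2 fold change 5.24). Calcrl and Ramp1 encode both chains of the receptor for calcitonin gene-related peptide. Calcrl was at 449, 427, 168, 229, 292 and 290 CPM in ILC2s and 55.5 to 76.1 CPM in T cells (log2 fold change 2.10), and Ramp1 at 350 to 673 CPM in ILC2s and 80.3 to 133 CPM in T cells (2.11). Among lipid receptors, Cysltr1, which binds cysteinyl leukotrienes, was at 173 to 261 CPM in ILC2s and at most 13.0 CPM in T cells (5.66). Ltb4r, a leukotriene B4 receptor, rose by 4.77. P2ry1, an ADP receptor, rose by 1.97, and the oxysterol receptor gene Gpr183 by 0.95. The prostaglandin E2 receptor gene Ptger4 was lower (-1.60). Ptgdr2, the prostaglandin D2 receptor that marks ILC2s in human tissue, was held by only 9 ILC2s (0.766%). The cells that held Cd3 and met the rest of the rule also carried some of these receptors, above all in the young rats, where 6 of 20 and 9 of 24 held a single Cd3 UMI. There, Nmur1 was held by 35.0% and 20.8% of such cells and 15.5% and 19.9% of ILC2s, and Calcrl by 80.0% and 83.3% against 80.2% and 84.8%. In the older rats Nmur1 was held by 0 to 8.57% of such cells and 5.56 to 28.3% of ILC2s, and Calcrl by 33.3 to 64.3% against 44.4 to 88.0%. Calcrl was also held by 58.3% of the mast gate, where Nmur1 was in 0 cells.

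**Figure D3:**
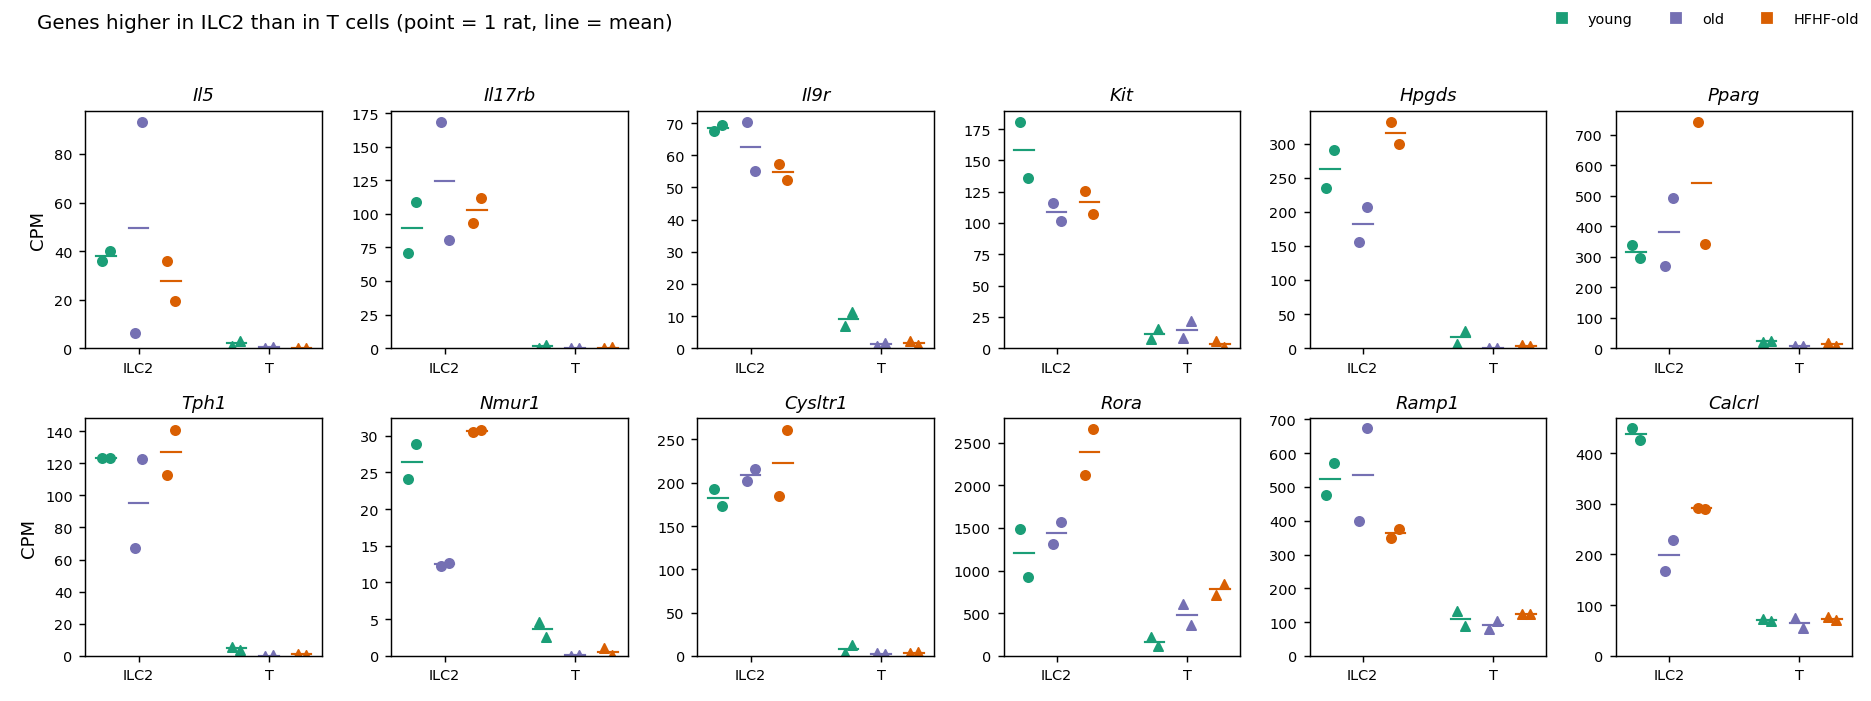
Level of 12 genes in CPM (linear axes from 0) in ILC2s (circles) and T cells (triangles), each point 1 rat, coloured by group, with the group mean as a line. Il9r lay between 52.3 and 70.4 CPM in the ILC2s of all 6 rats, and no ILC2 value of any gene shown fell to the highest T cell value.

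The metabolism list was divided. Of its 11 tested genes, 4 were higher (Pparg, Tph1, the polyamine enzyme Odc1 at 2.17 and the triglyceride enzyme Dgat1 at 1.19), and 3 were lower (the stress gene Ddit4, the fatty acid carrier Fabp5 and the glucose transporter Slc2a1). Their median was 0.09. Some of the highest genes named by rule encode enzymes. Hpgds, the synthase that makes prostaglandin D2, was at 234, 290, 156, 207, 332 and 300 CPM in ILC2s against 0.654 to 24.9 CPM in T cells (log2 fold change 5.91 ± 0.50 SE, edgeR adjusted p = 1.39e-05). Tph1, the rate-limiting enzyme of serotonin synthesis outside neurons, was at 67.3 to 141 CPM in ILC2s and 0 to 5.60 CPM in T cells (6.59). It was held by 38.1% of ILC2s and 53.6% of the mast gate. Pparg, a nuclear receptor for lipids, was at 269 to 743 CPM in ILC2s and at most 24.4 CPM in T cells (5.04). The fatty acid enzyme genes Far2 and Olah rose by 5.82 and 4.78. Arg1, the arginase of activated ILC2s in other tissues, was held by 2.98% of ILC2s, 4.40% of the macrophage gate, 0.766% of T cells and 0.701% of the NK gate. After thinning to 2000 UMIs it was held by 0 to 1.15% of ILC2s and 0 to 0.476% of T cells per rat.

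ILC2s held more transcripts of some lineage and activation genes. Of 12 transcription factors on the ILC2 list, 5 were higher and 1 lower (median 0.62). Rora stood at 930 to 2655 CPM in ILC2s and 113 to 847 CPM in T cells (log2 fold change 2.03 ± 0.23 SE, edgeR adjusted p = 1.12e-04). Hes1, a target of Notch signalling, rose by 4.10, and Id2, Maf and Runx1 by 0.77, 0.89 and 0.63, while Tcf7, a factor of naive T cells and lymphoid progenitors, fell by 1.81. Kit, the stem cell factor receptor, was held by 56.9% of ILC2s and 2.72% of T cells, at 102 to 181 CPM against 0.890 to 21.5 CPM (4.06). It is also a mast cell gene, held by 69.0% of the mast gate, and ILC2s held 13.7% of its UMIs in all kept cells. Of 13 NF-kB and AP-1 genes, 7 were higher and 4 lower (median 0.93). Nfkbia, the inhibitor induced by NF-kB, was at 818, 551, 1668, 4789, 1212 and 2316 CPM in ILC2s and 141 to 260 CPM in T cells (2.87), and Nfkb1 rose by 2.10. In the same sums, 6 of 10 tested genes of the response to tissue dissociation (Fos, Fosb, Jun, Junb, Dusp1 and Dnajb1) were higher and none lower, with a median of 0.74. The part of digestion in the NF-kB values was not tested.

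Most genes of the T cell list and of the NK and cytotoxic list were lower in ILC2s. Of 15 tested T cell genes 13 were lower, and of 11 NK and cytotoxic genes 10 were lower, with medians of -2.99 and -3.32. Cd8a was at 0 to 9.33 CPM in ILC2s and 114 to 776 CPM in T cells (log2 fold change -6.45). Cd8b had 3 UMIs in all ILC2s against 5756 in T cells, a ratio of 542 with a counting interval of 185 to 2629 over all rats pooled, while the fit within rats gave a log2 fold change of -8.26. Themis, needed for T cell selection, was at 1.74 to 11.2 CPM in ILC2s and 77.2 to 740 CPM in T cells (-6.00), and the interferon gamma gene Ifng at 0 to 2.80 CPM and 17.1 to 228 CPM (-5.71). Tbx21, the factor of type 1 lymphocytes (-4.55), and Ctla4, an inhibitory receptor (-5.65), were lower too. Of 10 tested residency and migration genes 3 were higher (the chemokine receptor Cxcr6 at 0.89, Rgs1 at 0.66 and Rgs2 at 1.12) and 6 lower, with a median of -1.43. The 6 included S1pr1 (-3.72), which encodes a receptor for exit from tissue, and Itgae, Itga4, Cd69 and the gut-homing receptor Ccr9. Of 6 costimulation and inhibition genes, Socs1 was higher, and Cd28 and Ctla4 were lower (median 0.50). Ahr and Il1r1, the 2 genes tested of the 7 on the ILC3 list, were lower. No gene of the 7 tested for proliferation passed (median -0.18).

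**Figure D4:**
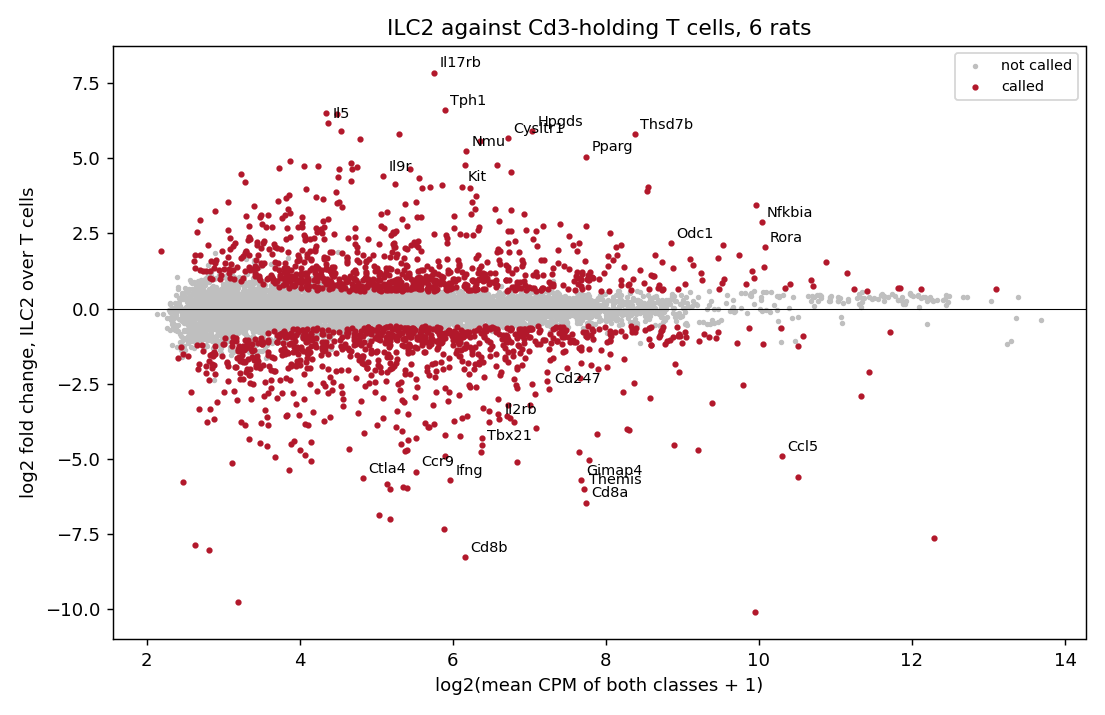
Each point is 1 of 9921 tested genes, with log2 of the mean CPM of both classes plus 1 on the horizontal axis and the log2 fold change of ILC2s over T cells, fitted within 6 rats, on the vertical axis. Red points are the 1637 genes past the test, and Il17rb (7.84) and Cd8b (-8.26) are labelled near the ends of the vertical range.

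Transcripts on the acinar and endocrine lists, most of which lymphocytes are not known to make, also differed between the classes. Of 16 tested acinar genes 10 were lower in ILC2s, and of 12 endocrine genes 7 were lower and 1 higher (medians -1.09 and -1.61). The higher gene was Cpe, which encodes the hormone-processing enzyme carboxypeptidase E. It was at 67.3 to 160 CPM in ILC2s and 19.0 to 107 CPM in T cells, higher in ILC2s in each of the 6 rats (log2 fold change 1.18, edgeR adjusted p = 0.00410). After thinning it was held by 12.6% of the ILC2s of HFHF-old replicate 2, where Ins1 was in 0 of them. The summed acinar level was 207 to 9082 CPM in ILC2s and 1793 to 18180 CPM in T cells. In all, 152 ILC2s held at least 2 UMIs of each of at least 2 markers of 1 other lineage, and the part of free RNA and of mixed droplets in these differences was not tested.

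A closer relative of the ILC2 was also at hand. In all, 202 cells held Cd3 and met the remaining criteria, so they carried Gata3, Il1rl1 and an interleukin or costimulatory receptor. Foxp3, the factor of regulatory T cells, was held by 33.7% of them, 2.66% of all T cells and 0.340% of ILC2s. Against these 202 cells, 482 of 4992 tested genes passed (9.66%), 228 higher (4.57%) and 254 lower (5.09%) in ILC2s. Il17rb was higher by 2.30 on the log2 scale (edgeR adjusted p = 0.0109), Cysltr1 by 2.52, Hpgds by 2.25, Hes1 by 2.65, Kit by 1.91 and Rora by 1.37. Each of these 6 differences was smaller than the same gene's difference from all T cells, and 24 of the 202 cells had a single Cd3 UMI. Tbx21 (-3.64), Ccl5 (-3.55), Il2rb (-3.10) and Themis (-4.47) stayed lower in ILC2s. Among receptors, the differences of Calcrl, Ramp1, Gpr183 and Ltb4r were 0.71, 1.06, 0.88 and 1.64, and all 4 passed. Il5, Nmur1 and P2ry1 were not among the genes tested here. Of 67 genes that passed against all T cells, that were named by rule or stood on a list other than those of acinar, endocrine, fibroblast, endothelial, macrophage and B cells, and that were tested here, 42 also passed here, 23 kept their direction without passing, and Maf (-0.16) and Runx1 (-0.03) fell below 0. Of the 43 that were higher against all T cells, 23 passed here. Those that did not included the receptor genes Il18r1, Il2rg, Il1rap and Tnfrsf25, the factor Id2, and Odc1 and Socs1. They also included Cxcr6, Rgs1 and Rgs2, which were the 3 higher genes of the residency and migration list. Of the 6 higher dissociation genes only Fosb passed here, and of the 6 higher NF-kB and AP-1 genes tested here Tnfaip3, Relb and Nr4a1 did not.

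Promoter sequences of Il5 and of the highest and lowest genes against T cells were looked up in RefSeq (build GRCr8). They were searched by letters for some forms of the GATA motif of Gata3's family. A window of 300 bases around the start was found for 10 of 13 genes, Il5 and the 12 highest. The letters AGATAA or TGATAA, on either strand, occurred in 1 of the 10, in 3 of 10 among the 12 lowest genes, and in 18.9% of all 33469 promoters. The related letters AGATAG and TGATAG were not part of that search, so its counts cover only the searched forms. On either strand they stand in the windows of Il5 (ctatct), Far2, Ltb4r and Thsd7b among the higher genes. Among the lower genes they stand in the windows of Ifng and Ly49s6. Il5 (chr10:38374882-38375181, plus strand) is shown as the cytokine of the class and Olah (chr17:79786582-79786881, plus strand) as the gene with the searched letters, which are in capitals.
Il5: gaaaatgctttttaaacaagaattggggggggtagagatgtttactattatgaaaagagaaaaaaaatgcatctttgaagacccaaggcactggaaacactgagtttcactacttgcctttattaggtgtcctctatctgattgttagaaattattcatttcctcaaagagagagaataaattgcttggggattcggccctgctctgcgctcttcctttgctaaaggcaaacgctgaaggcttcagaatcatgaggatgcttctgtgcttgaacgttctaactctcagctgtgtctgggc
Olah: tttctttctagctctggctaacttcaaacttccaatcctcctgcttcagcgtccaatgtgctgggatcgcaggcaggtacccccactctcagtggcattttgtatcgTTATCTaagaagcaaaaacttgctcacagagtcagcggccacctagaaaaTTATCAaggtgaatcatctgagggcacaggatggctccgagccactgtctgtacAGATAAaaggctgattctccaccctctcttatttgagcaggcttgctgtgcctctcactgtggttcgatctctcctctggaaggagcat
No match in these windows says only that the letters are absent there, and the matches in Olah are letters and not sites of binding.

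Within ILC2s, gene levels were compared between groups over 8234 genes, with 2 rats a group. Between old and young rats no gene passed edgeR's test (0 called, 0%), and 446 of the 8234 genes had an unadjusted p below 0.05. With no difference at all, a share of 0.05 of the tested genes would have such a p on average. DESeq2 on the same sums called 22 genes. The groups did not overlap for 1340 genes that were higher (16.3%) and 1668 that were lower (20.3%) in old rats. With 2 rats against 2, a random order of the rats would separate a gene with a probability of 0.333, both directions together. On simulated counts of this size the test recovered 42% of genes changed by 2 and 4% of genes changed by 1 on the log2 scale, so most changes of these sizes would be missed.

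The 5 genes with the smallest p between old and young rats are given as values. RT1-A1, a classical class I histocompatibility gene, was at 112 and 99.0 CPM in young ILC2s, 560 and 495 CPM in old and 118 and 125 CPM in HFHF-old ILC2s (log2 difference old minus young 2.32 ± 0.26 SE, edgeR adjusted p = 0.256). In T cells too both old rats were the highest, with 289 and 167, 1109 and 1002, and 208 and 251 CPM. RT1-A1 has near-identical relatives whose alleles differ between rats, so its counts are uncertain. Nr3c2, the mineralocorticoid receptor, was at 15.9 and 10.5 CPM in young, 88.7 and 63.5 CPM in old and 113 and 144 CPM in HFHF-old ILC2s (2.50 ± 0.36 SE, adjusted p = 0.296). Skil, a repressor of TGF-beta signalling, was at 58.4 and 43.6, 174 and 212, and 237 and 217 CPM. Mest, an imprinted gene of growing tissue, had 423 UMIs in young and 1 in old ILC2s, a ratio of 33.7 with a counting interval of 6.01 to 1333. The clone-named gene AC127784.2 had 2 UMIs in young and 15 in old ILC2s. All 5 were called by edgeR with no filter on low counts, where 176 genes passed. DESeq2 also called RT1-A1, Nr3c2, Skil and AC127784.2 but not Mest, and RT1-A1 alone of the 5 was called after thinning. Over all alternatives the adjusted p of RT1-A1 ranged from 7.01e-15 to 0.868.

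Genes of activation and of the ILC2 programme are given as values, since none passed edgeR's test between groups. For old against young rats, Nfkbia, Rgs1 and Hes1 were called by DESeq2 and by edgeR with no filter on low counts, and were not called under the other alternatives. Of 12 tested NF-kB and AP-1 genes, 11 had a log2 difference above 0 between old and young ILC2s, with a median of 1.19, against -0.03 and 47.9% above 0 over all genes, and 0 were called. Of 10 tested dissociation genes, 9 lay above 0, with a median of 0.70, and 0 were called. All 5 tested costimulation and inhibition genes lay above 0 (median 0.76, 0 called), as did 7 of 9 T cell genes (0.608, 0 called). The ILC2 transcription factors were split, with 6 of 12 above 0 (median 0.07, 0 called). So were the cytokine and alarmin receptors, with 7 of 12 (0.04, 0 called). Of the effector cytokines and peptides 3 of 4 lay above 0 (0.51, 0 called). Some further lists lay mostly below 0. Above 0 were 0 of 16 acinar genes (median -1.25), 0 of 7 NK and cytotoxic genes (-2.23), 1 of 7 proliferation genes (-2.4) and 1 of 5 fibroblast genes (-0.965), with 0 called in each list. Nfkbia was 2.22 ± 0.56 (SE) higher in old than in young rats (edgeR adjusted p = 0.667), Nfkb1 0.88 ± 0.29 (adjusted p = 0.880) and Rgs1, at 431 and 258 against 1291 and 1537 CPM, 2.03 ± 0.35 (adjusted p = 0.406). Hes1 was at 29.7 and 24.9 CPM in young, 236 and 72.0 CPM in old, and 199 and 78.4 CPM in HFHF-old ILC2s. The summed dissociation genes in ILC2s were at 8035 and 2717 CPM in young, 7849 and 8338 CPM in old and 13724 and 16199 CPM in HFHF-old rats, and their part in these values was not tested. Il5 gave a log2 difference of 0.28 ± 0.81 (SE, adjusted p = 0.970).

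Between HFHF-old and old rats no gene passed either (0 called, 0%), although 778 genes had an unadjusted p below 0.05, and DESeq2 called 9. The groups did not overlap for 1901 genes that were higher (23.1%) and 1622 that were lower (19.7%) in HFHF-old rats, where a random order would again separate a gene with a probability of 0.333. RT1-A1 had the smallest p (log2 difference HFHF-old minus old -2.12 ± 0.27 SE, edgeR adjusted p = 0.514). Dnajb1, a heat shock co-chaperone of the dissociation list, was at 67.3 and 97.4 CPM in old and 226 and 294 CPM in HFHF-old ILC2s (1.67 ± 0.31 SE, adjusted p = 0.525). Cobll1 was at 21.4 and 33.9 CPM against 108 and 98.9 CPM. The lysosomal sulfatase gene Arsb had 3 UMIs in old and 79 in HFHF-old ILC2s, a ratio of 9.10 with a counting interval of 3.00 to 45.1. Mlf1 had 0 UMIs in both old rats and 39.5 and 50.4 CPM in the HFHF-old rats, at least 8.75-fold higher than the floor of 3 counts over the old group. Il5 gave a log2 difference of -0.79 ± 0.88 (SE, adjusted p = 0.756). Without HFHF-old replicate 2, 0 genes passed, and the log2 differences were -2.16 for RT1-A1, 1.47 for Dnajb1, 1.99 for Cobll1, 2.80 for Arsb and -0.37 for Il5. Mlf1 then stood at 39.5 CPM in the remaining HFHF-old rat and 0 in both old rats. In that fit the single HFHF-old rat is assumed to vary like the other groups. RT1-A1, Dnajb1, Cobll1, Arsb and Mlf1 were called by edgeR with no filter on low counts, where 185 genes passed, and DESeq2 called RT1-A1 and Dnajb1 and gave no adjusted p for Arsb and Mlf1. Over all alternatives the adjusted p of RT1-A1 ranged from 6.36e-11 to 0.820.

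Cycling transcripts differed between the 2 young rats and between the 2 HFHF-old rats, but hardly between the old rats. Summed over 8 proliferation genes, ILC2s had 254 and 996 CPM in young, 198 and 189 CPM in old, and 904 and 160 CPM in HFHF-old rats. Mki67 was at 14.4, 161, 3.06, 0, 154 and 3.73 CPM in ILC2s, high in young replicate 2 and HFHF-old replicate 1. It was held by 10.6% and 15.2% of the ILC2s of those rats and by 0 to 4.00% elsewhere. T cells did not share this order, with Mki67 in 14.9% of them in young replicate 2 but 5.18% in HFHF-old replicate 1. In the macrophage gate of HFHF-old replicate 1, Mki67 was held by 21.7% of cells, the highest of the 6 libraries, and mixed droplets were not tested as its source in ILC2s.

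Whether a group difference was larger in ILC2s than in T cells was tested as an interaction over 11449 genes. The test called 1 gene (0.00873%) for HFHF-old against old and 1 (0.00873%) for old against young. Of the 11449 genes, 629 and 809 had an unadjusted p under 0.05, where a share of 0.05 would on average with no difference. In both it was Ppy, the pancreatic polypeptide hormone, which lymphocytes are not known to make. Ppy was held by 38.8 to 97.2% of ILC2s in 5 libraries and by 0% in HFHF-old replicate 2. In the macrophage gate the shares were 54.0 to 99.1% and 0%. Without HFHF-old replicate 2, Ppy kept its call for HFHF-old against old, with a log2 difference between the classes of 5.11 (edgeR adjusted p = 0.00709). That call was lost without old replicate 2, without HFHF-old replicate 1, after thinning and without doublet-like cells, and the call for old against young without old replicate 2 and without doublet-like cells.

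**Figure D5:**
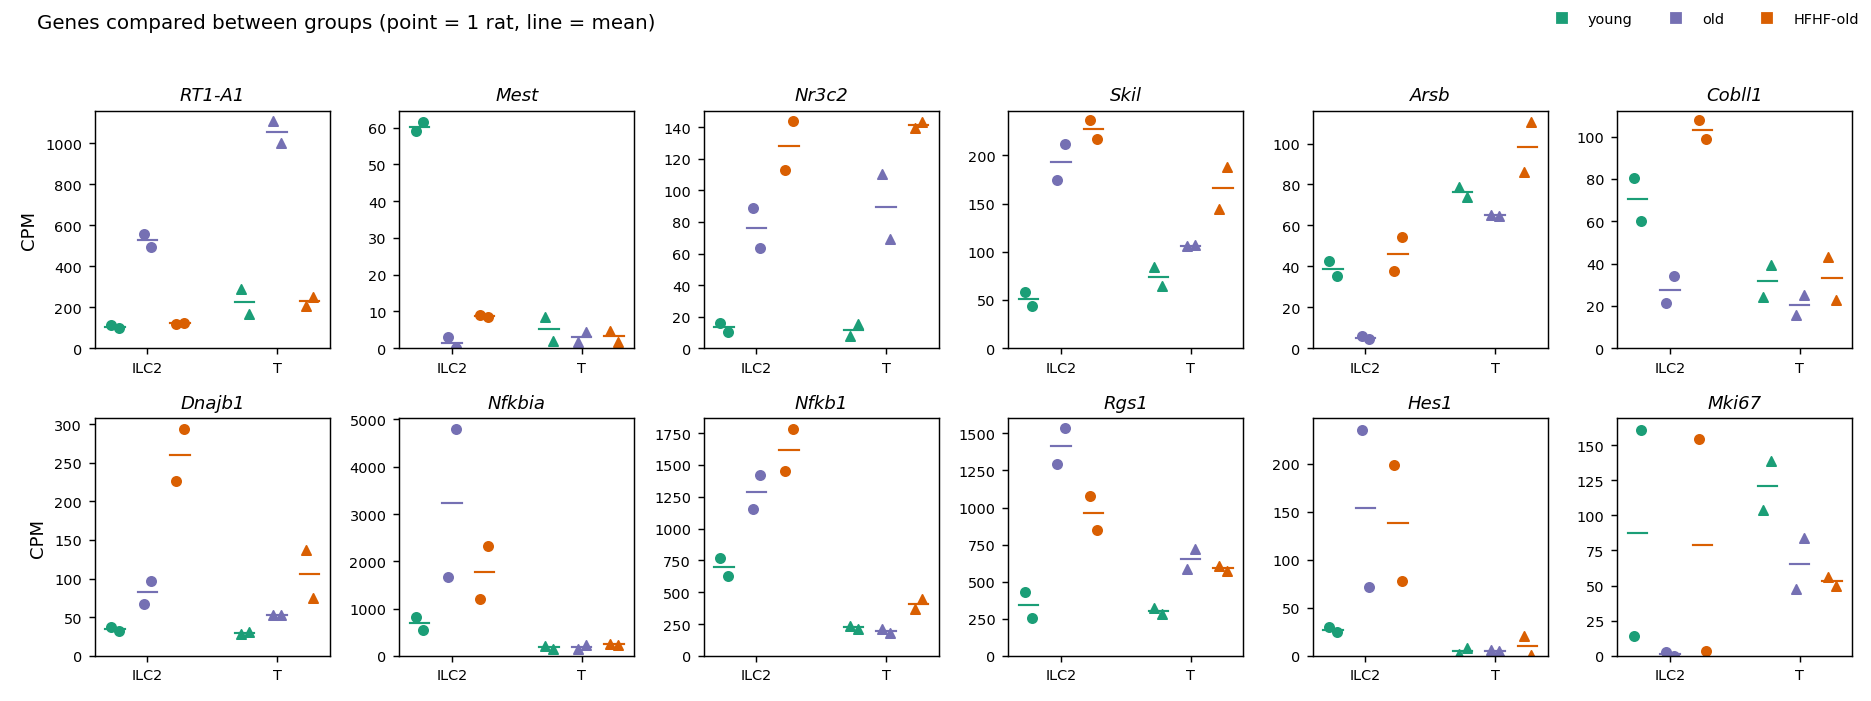
Level of 12 genes in CPM (linear axes from 0) in ILC2s (circles) and T cells (triangles) of the 3 groups, each point 1 rat, with the group mean as a line. RT1-A1 was at 560 and 495 CPM in old ILC2s and between 99.0 and 125 CPM in the others, and Mki67 was high in 1 young and 1 HFHF-old rat.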

How the data were processed

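Pancreatic cells of 6 male Wistar rats were sequenced after 10x Genomics capture. The deposited values are integer UMI counts per gene and barcode, made by the authors with Cell Ranger, whose version is 5.0.0 per the file headers although the study's methods name another. The submitters' processing notes give build Rnor_6.0. Barcodes with at least 200 genes and at most 25% mitochondrial UMIs were kept, 75981 of 78024. No doublet caller was run.

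Cells were gated by the stated rule and UMIs were summed per rat and class, since rats and not cells are the replicates. Sums were compared with edgeR 4.0.16 (TMM, filterByExpr, quasi-likelihood test, Benjamini-Hochberg adjustment), with rat as a block for the class comparison and the interaction, and group means over all 6 ILC2 sums. DESeq2 1.42.0 was an alternative, beside RLE factors, no filter, thinning to 2000 UMIs, doublet-like cells left out, other T cell gates, the rat block or replicate block, and each replicate left out. The main ILC2 and T cell sums held 285440 to 10860198 UMIs, and CPM used these totals scaled by TMM factors. Thinning left out cells below 2000 UMIs. Shares were compared with exact permutation tests.

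Genes were named by rule, the 12 highest and 12 lowest called genes with a symbol, the same sign in every rat and at least 50 CPM, without acinar and endocrine genes, together with 21 gene lists, and between groups the 5 smallest p. Members, lists and rules were chosen with earlier results of these data known. Rats are separate animals, but 2 per group limit every test between groups. The tests were checked on simulated counts with known changes. Secretory cells, blood and histology were not analysed here. One listed residency and migration gene is counted with its list but not reported by name here.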

Additional observations from a re-analysis of the deposited data

Results flagged for a closer look

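Ppy, the gene of pancreatic polypeptide, was the single gene whose difference between groups differed between ILC2s and T cells in edgeR's interaction test. Its level was 550 and 1339 CPM in the ILC2s of young rats, 73.4 and 258 CPM in old rats, and 62.8 and 0 CPM in HFHF-old rats. In T cells it was 1368 and 4895 CPM in young, 3149 and 19049 CPM in old, and 109 and 0.356 CPM in HFHF-old rats. The log2 difference of HFHF-old minus old was 5.07 ± 0.42 (SE) higher in ILC2s than in T cells (edgeR adjusted p = 0.00508), and that of old minus young was -4.32 ± 0.30 (SE, edgeR adjusted p = 9.16e-04). Over the other processing choices the adjusted p ranged from 3.33e-35 to 1 for the first and from 3.85e-78 to 0.455 for the second, and neither was called without old replicate 2 or without doublet-like cells. The first was also not called after thinning or without HFHF-old replicate 1. Summed over 14 endocrine genes, ILC2s had 103 to 68249 CPM and T cells 56.2 to 87520 CPM, and the part of free hormone RNA in the result was not tested.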

How the results depend on the processing

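The ILC2 share kept its direction under every alternative. Leaving out each rat in turn, the log2 ratio of old to young ranged from -3.52 to -3.04 and that of HFHF-old to old from 0.15 to 1.40. Against T cells the count of 1637 called genes became 1056 after thinning (6214 genes tested) and 482 against T cells that met the rest of the rule. It rose to 2085 with no filter (870 higher, 1215 lower) and to 2122 against T cells from 1 Cd3 UMI (798 higher, 1324 lower), so the split of 780 higher and 857 lower became less even. Against the T cells that met the rest of the rule, Maf (-0.16) and Runx1 (-0.031) reversed. With DESeq2, HFHF-old against old gave 9 and old against young 22 calls in ILC2s, and 2 and 24 in the interactions. With no filter on low counts these were 185, 176, 147 and 212. Thinning gave 2 calls for old against young, and 2 and 7 in the interactions, and leaving out doublet-like cells gave 0 and 7 interactions. Without 1 rat, interaction calls ranged from 0 to 13 for HFHF-old against old and from 0 to 35 for old against young, with 0 in both without old replicate 2. Over all alternatives, uncalled values for HFHF-old against old ranged from -0.98 to 0.94 for Hes1, from -1.77 to 2.13 for Il5 and from -1.41 to 0.085 for Nfkbia, and Il5 for old against young from -2.62 to 1.27. The causes were not tested. Of 1358 other values for genes named in the class comparison, 1265 kept direction and call and 91 lost the call.

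The replicate block gave 0 calls in both comparisons between groups, as did the fit without it. Same-numbered rats deviated with correlations of 0.244, -0.037 and 0.0654, so the numbers were not taken to pair rats. Small sums limit the old group most, with 328972 and 285440 ILC2 UMIs from 25 and 54 cells in replicates 1 and 2.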
